A study of Mus musculus with 195 samples.

Results

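The importins Kpnb1, Kpna2, Kpna4, Ipo5 and Ipo7, the exportin Xpo1, and the GTPase Ran with its partners Ranbp1, Rcc1 and Nutf2, all genes of nuclear transport, were described in single mouse stem cells mapped by BATSeq. They are 10 of the 19736 genes in the gene table and were listed because the polyadenylation site of Kpnb1 differed between the populations of these cells. The list was thus chosen by the distal share of Kpnb1 in the pooled cells of the 3 populations, which is given as a description. BATSeq reads the end of each polyadenylated transcript together with a unique molecular identifier (UMI), so that 1 UMI stands for 1 transcript molecule at 1 polyadenylation site. Each molecule gives 1 tag whatever the length of its transcript, and levels can be compared between genes without division by length.

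All cells came from 46C embryonic stem cells, a Sox1-GFP reporter line that was derived from E14tg2a. ESC-2i were grown without serum in N2 and B27 medium with 1 µM PD0325901, an inhibitor of MEK, 3 µM CHIR99021, an inhibitor of GSK3, and 10 ng/ml LIF. ESC-FCS were grown in 10% FBS with 10 ng/ml LIF. NSC were derived from the same line by differentiation in a monolayer, sorted for GFP and kept with EGF and bFGF. Every population was sorted for small cells in G0/G1, and 48 cells of each were processed in 2 library batches. The gene table kept 33 ESC-2i, 33 ESC-FCS and 41 NSC, with 368362, 226683 and 151877 molecules on genes and between 1079 and 21050 molecules per cell. The labels name no replicate culture, so each population counts as 1 sample and no test between populations was made. Intervals are 95% intervals of pooled molecules, exact for levels, shares and ratios and by Newcombe's method for differences of shares. They cover counting error only, and the values of both library batches are given beside them. The 24 cell barcodes were used again in all 6 library batches. Batches were numbered within each population, so batch 1 of one population has no tie to batch 1 of another. A difference between batches of the same number is a pairing by order only. A separate set holds 48 further ESC-FCS cells (called control cells here, 42 of them with at least 1000 molecules), 1 library of 48 ESC-FCS pooled before preparation, and 2 such libraries of 48 pooled ESC-2i.

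Importins carry proteins into the nucleus and exportins carry them out. Ran sets the direction of both: in the nucleus, where the exchange factor Rcc1 sits on chromatin and loads Ran with GTP, importins release their cargo and exportins take theirs up, and in the cytoplasm Ranbp1 and the Ran GTPase activating protein end the cycle. Nutf2 returns Ran to the nucleus. Kpnb1 is the beta subunit that passes through the pore, and Kpna2 and Kpna4 are alpha subunits that link it to cargo with a classical nuclear localization signal. The length of a 3′ untranslated region decides which microRNA and protein binding sites a transcript carries, and it is set where the transcript is cleaved and polyadenylated.

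The sums of ESC and NSC markers fitted the labels. The 9 ESC markers summed to 23.9 molecules per 10000 molecules on genes in ESC-2i and 25.6 in ESC-FCS, against 1.25 in NSC, where Nanog, Pou5f1, Zfp42, Tdgf1, Dppa5a and Utf1 were at 0. Pou5f1 and Dppa5a were rare in ESC as well, with 19 and 7 molecules in ESC-2i and 4 each in ESC-FCS. Their 0 in NSC therefore says little. The 8 NSC markers summed to 1.93, 1.46 and 51.1. Markers of primitive endoderm, fibroblasts and oligodendrocytes summed to at most 0.271 in any population. The astrocyte list reached 15.5 in NSC, all of it Aldoc with Gfap and Aqp4 at 0, and the neuron list 4.35, of which Map2 was 3.88 and Snap25 was at 0.

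The sites that the results turn on are shown as the last 30 transcript bases before the cleavage position, 5′ to 3′, read from GENCODE M21 transcripts on GRCm38. Capitals mark the hexamers AATAAA or ATTAAA, the usual polyadenylation signals. Variants of them were not searched for, so a site without these hexamers may still hold a signal. The proximal and distal site of a gene are the pair with most molecules over the 3 populations, and the Kpnb1 site next upstream of its proximal site is added because it holds a hexamer that the proximal site lacks. Coordinates are those of the 30 bases, on the strand given.
Kpnb1 upstream neighbour, chr11:97161623-97161652 minus: aaaacaaatgtacAATAAAagtaaatacac
Kpnb1 proximal, chr11:97161539-97161568 minus: tgttgaacgatctgataaaataaccatttg
Kpnb1 distal, chr11:97159719-97159748 minus: ttctgAATAAAgtccgctttatttttattt
Ipo7 proximal, chr7:110056084-110056113 plus: atatgcaatctATTAAAagaacttaattcg
Ipo7 distal, chr7:110056574-110056603 plus: gcacatattgatatttaaaatgcataatta
Ran proximal, chr5:129023133-129023162 plus: aatcagAATAAAgttgtatttcaaataatc
Ran distal, chr5:129024290-129024319 plus: aacttaaatatatatcatttctgctttgcc
Ranbp1 proximal, chr16:18239981-18240010 minus: tttacaagggactttataaagaactgaatt
Ranbp1 distal, chr16:18239788-18239817 minus: aatagtgAATAAAaaatgcctttgaaaacc

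Kpnb1 (ENSMUSG00000001440, chr11:97159714-97187881, minus strand) ended at 9 sites, and its pair held 82.7% of its 324 molecules. Both sites of the pair lie in the 3′ UTR of the last exon, 1142 and 2962 bases after the stop codon, so that the longer transcript carries 1820 further bases. ESC-2i had 93 molecules at the proximal and 33 at the distal site, a distal share of 26.2% (95% interval 18.8 to 34.8). ESC-FCS had 28 and 53 molecules, a distal share of 65.4% (54.0 to 75.7). NSC had 27 and 34 molecules, a distal share of 55.7% (42.4 to 68.5). The short form was thus the more frequent one in ESC-2i and the long form in the other populations.

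The library batches of ESC-2i gave distal shares of 42.2% over 45 molecules and 17.3% over 81 molecules. Those of ESC-FCS gave 72.9% and 54.5%, and those of NSC 51.4% and 61.5%. Both batches of ESC-FCS and both of NSC lay above both batches of ESC-2i, while ESC-FCS and NSC overlapped. The distal share of ESC-FCS exceeded that of ESC-2i by 39.2 percentage points (25.6 to 50.9), and NSC exceeded ESC-2i by 29.5 points (14.6 to 43.2). Paired by number only, batches 1 of NSC and ESC-2i differed by 9.21 points and batches 2 by 44.3 points. NSC and ESC-FCS differed by -9.69 points (-25.3 to 6.30).

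**Figure D1:**
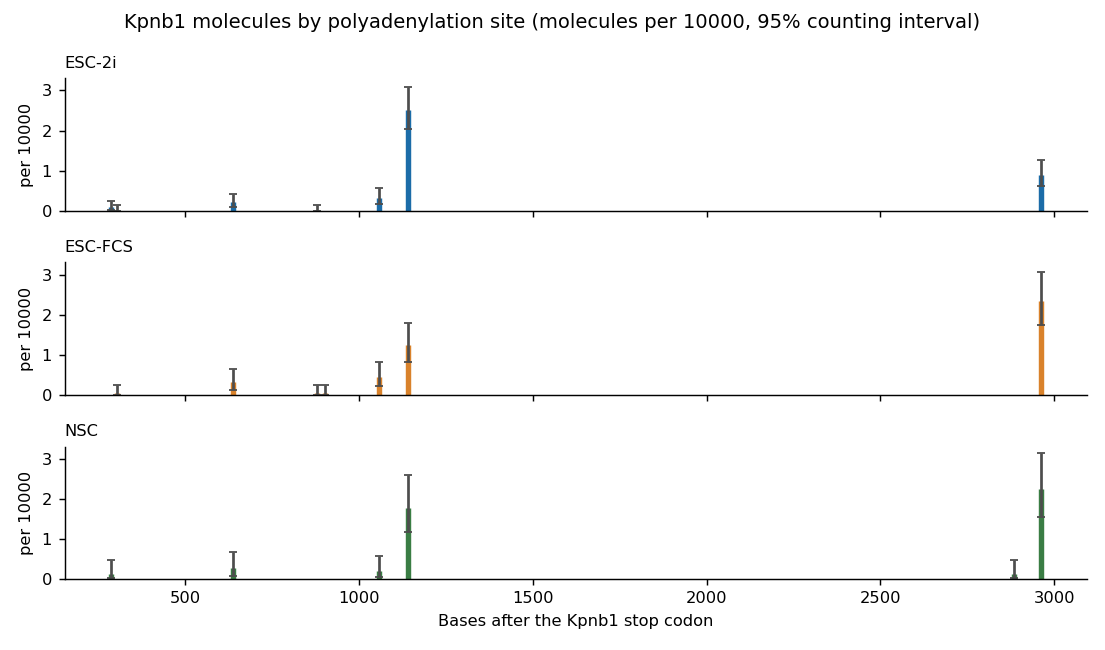
Kpnb1 molecules per 10000 molecules on genes (y axis, with exact 95% counting intervals) at each polyadenylation site, plotted by its distance from the stop codon in bases (x axis), in the 3 populations. The site at 1142 bases is the tallest in ESC-2i and the site at 2962 bases is the tallest in ESC-FCS and NSC.

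In the pooled cells both forms moved in opposite directions between the ESC populations. The gene as a whole lay between 4.10 and 4.74 molecules per 10000. Library batches of the proximal form overlapped between the ESC populations, and those of the distal form did not. The proximal form stood at 2.52 molecules per 10000 in ESC-2i and 1.24 in ESC-FCS, against 1.78 in NSC. The distal form stood at 0.896, 2.34 and 2.24. The ratio of ESC-FCS to ESC-2i was 0.489 (0.309 to 0.753) for the proximal form and 2.61 (1.66 to 4.16) for the distal form. For NSC over ESC-2i it was 0.704 (0.441 to 1.09) for the proximal form, an interval that includes 1, and 2.50 for the distal form. In the separate control cells the proximal form was higher than in the ESC-2i cells, with 74 molecules among 223055 on genes. In the ESC-FCS pool it was above both ESC-2i pools, with 91 among 179155 against 170 among 479483 and 230 among 494799. The distal form was higher in these ESC-FCS libraries too.

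In single cells the pair gave few molecules, at most 12 proximal and 6 distal in a cell. Among 33 ESC-2i, 20 held more proximal than distal molecules, 9 held more distal and 16 held both. Most of the 20 cells with more proximal molecules came from the ESC-2i library batch with a distal share of 17.3%. In the ESC-2i batch at 42.2%, cells with more distal molecules slightly outnumbered those with more proximal ones. Among 33 ESC-FCS, 6 held more proximal, 17 held more distal and 10 held both. Among 41 NSC, 7 held more proximal, 12 held more distal and 19 held neither. A cell with a single molecule of the pair can only show one form, which was so in 8 ESC-2i, 13 ESC-FCS and 6 NSC. Each population held cells of either kind, and the populations overlapped cell by cell.

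**Figure D2:**
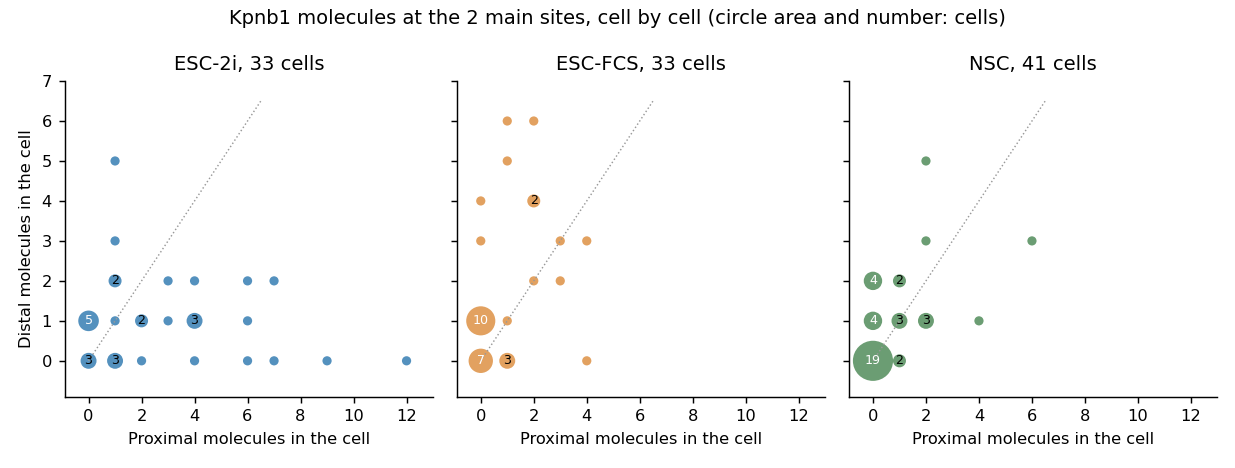
Kpnb1 molecules at the proximal (x axis) and distal site (y axis) in each cell of the 3 populations, with circle area and number giving the cells at that point and the dotted line marking equal counts. Of 33 ESC-2i, 20 lie below the line, most of them from the library batch with a distal share of 17.3%. Of 33 ESC-FCS, 17 lie above the line and 6 below.

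The separate libraries, which the choice of the genes did not use, gave smaller differences. The distal share of Kpnb1 was 42.2% (33.5 to 51.2) over 128 molecules in the ESC-FCS control cells, with 44.0% and 39.6% in their 2 batches, and 32.1% (24.3 to 40.7) over 134 molecules in the ESC-FCS pool. It was 27.4% (21.7 to 33.5) and 19.6% (15.1 to 24.7) in the ESC-2i libraries of pooled cells. The control cells were 16.0 points (4.33 to 27.1) above the ESC-2i cells, but 1 of their batches lay below the ESC-2i batch at 42.2%. Their difference from the ESC-FCS cells of the main set, which carry the same label, was -23.2 points (-35.8 to -9.37). The ESC-FCS pool was 4.74 points (-4.75 to 14.6) above the first and 12.5 points (3.66 to 21.8) above the second ESC-2i pool. In a pool, more cells with a transcript and more transcripts per cell cannot be told apart. The pools were purified as RNA, unlike the single cells, and the sources do not say whether both ESC-2i libraries came from the same pool. Over all genes, their counts differed by more than sampling noise, with a chi-square of 4.87 per degree of freedom against 1.92 between the batches of ESC-2i cells.

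The distal shares nearest to those of Kpnb1, by the smallest value of the largest difference over the 3 populations, were those of Sar1a, Timm50 and Elob among 871 genes with at least 20 molecules of the pair in each. Sar1a, a GTPase of COPII vesicles, gave 25.0%, 65.0% and 61.9% in ESC-2i, ESC-FCS and NSC. Timm50, a subunit of the mitochondrial inner membrane translocase, gave 28.1%, 60.8% and 65.6%. Elob, which encodes elongin B, gave 41.8%, 49.2% and 56.1%, up to 16.2 points from Kpnb1.

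The Kpnb1 proximal site had neither hexamer in the 50 bases before it, whereas AATAAA began 25 bases before the distal site and 17 bases before the upstream neighbour, which held 25 molecules. Among 8073 sites with at least 10 molecules and 100 transcript bases before them, 82.3% held AATAAA or ATTAAA within 50 bases on the transcript strand, 66.6% held AATAAA, and 54.5% held TGTA, the core of the motif of cleavage factor I, within 100 bases. Of the 27 sites of the transport genes with at least 5 molecules whose sequence could be read, 19 held a hexamer and 18 held TGTA. TGTA was in neither 100-base window of the Kpnb1 pair. The 1820 bases between the pair held TGTA 7 times and AATAAA 2 times, and 43.8% of them were G or C. Of the 10 bases after the proximal site 3 were A, the median of 4493 sites, and no 30-base tile of the last 300 bases before either site was found in transcripts of another gene.

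Among the importins and the exportin, the distal share was lowest in ESC-2i for every one with enough molecules, although for most of them the intervals were wide. Ipo7 (ENSMUSG00000066232, chr7:110018274-110056609, plus strand), which carries ribosomal proteins and linker histone, ended 999 and 1489 bases after the stop codon. Its distal share was 21.7% in ESC-2i (46 molecules) and 38.7% in ESC-FCS (31 molecules), against 44.8% in NSC (29 molecules). The batches were 26.3% and 18.5% in ESC-2i, 26.7% and 50.0% in ESC-FCS, and 50.0% and 33.3% in NSC. The batches of ESC-FCS and NSC lay above those of ESC-2i, but the lower ESC-FCS batch only just, and the difference of 17.0 points between the ESC populations had an interval of -3.42 to 36.8.

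Xpo1, the exportin for leucine-rich export signals, used 24 sites, and its pair, 117 and 905 bases after the stop codon, held 59.0% of the molecules. Its distal share was 27.7% in ESC-2i and 36.8% in ESC-FCS, against 50.0% in NSC, over 47, 38 and 20 molecules. The NSC batches, at 25.0% and 66.7%, enclosed those of both ESC populations apart from the ESC-2i batch at 15.0%. Ipo5, an importin of ribosomal proteins and core histones, ended mainly 601 bases after the stop codon, and the site 588 bases farther held 10.7%, 17.6% and 20.0% of its pair in ESC-2i, ESC-FCS and NSC. Its largest difference, 9.29 points between NSC and ESC-2i, had an interval of -10.3 to 28.0. Of the 10 bases after its proximal site 7 were A, and 20.1% of 4493 sites had 6 or more.

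In the main cells Ran and Ranbp1 had a different order, with the highest distal share in NSC and the lowest in ESC-FCS, which the separate libraries did not keep. Ran (ENSMUSG00000029430, chr5:129020069-129024323, plus strand) ended 344 bases after the stop codon in 622 molecules and 1501 bases after it in 47. Its distal share was 6.02% in ESC-2i (3.48 to 9.58) and 4.79% in ESC-FCS (2.65 to 7.91), against 15.3% (9.18 to 23.4) in NSC. The NSC batches, at 12.9% and 18.4%, lay above all ESC batches, which ran from 2.73% to 8.33%. NSC exceeded ESC-FCS by 10.5 points (4.19 to 18.6) and ESC-2i by 9.30 points (2.74 to 17.5), the last below the limit of 10 points.

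Ranbp1 (ENSMUSG00000005732, chr16:18239784-18248732, minus strand) ended 106 bases after the stop codon of one transcript and 299 bases after that of another, the sites being 193 nt apart. Its distal share was 26.1% in ESC-2i (17.5 to 36.3) and 16.3% in ESC-FCS (9.63 to 25.2), against 37.3% (24.1 to 51.9) in NSC. The NSC batches were 37.5% and 37.0%, the ESC-FCS batches 15.6% and 17.6%, and the ESC-2i batches 12.8% and 35.8%. NSC was thus 20.9 points (6.24 to 35.9) above ESC-FCS, whereas the ESC-2i batches reached from below ESC-FCS to just under NSC. AATAAA began 24 bases before the proximal site of Ran, which had more molecules, and 23 bases before the distal site of Ranbp1, which had fewer. Neither hexamer stood in the 50 bases before the other site of each pair, where variants of them were not searched for.

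A share was counted as past the limit where it differed by at least 10 points and the batches of the populations did not overlap. Of 6 genes with at least 20 molecules of the pair in each population, Kpnb1 and Ipo7 were past it upward from ESC-2i to ESC-FCS, beside 7.07% of all 1585 genes. Kpnb1, Ipo7 and Ranbp1 were past it upward from ESC-2i to NSC (all genes 11.6% of 997). The Kpnb1 share chose the list, so nothing is read from these counts. Ran and Ranbp1 were past it upward from ESC-FCS to NSC (all genes 8.42% of 891). None was past it downward, where all genes gave 4.16%, 2.61% and 3.37% in these comparisons.

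The remaining members gave little on site choice. Rcc1 ended at a single site, 899 bases after the stop codon, in all 35 molecules. The pair of Kpna4 lies only 14 nt apart. With sites within 25 nt joined, a choice made after the values were seen, the site 5072 nt farther downstream held 4 of 18 molecules in ESC-2i, 5 of 20 in ESC-FCS and 0 of 9 in NSC, which allows up to 33.6% by the exact interval. Nutf2 had 18, 19 and 11 molecules of its pair, with distal shares of 22.2%, 15.8% and 36.4%, and both sites lie downstream of its annotated end. All 10 tiles of the last 300 bases of its annotated transcript recur in Nutf2-ps1, so its values are uncertain.

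**Figure D3:**
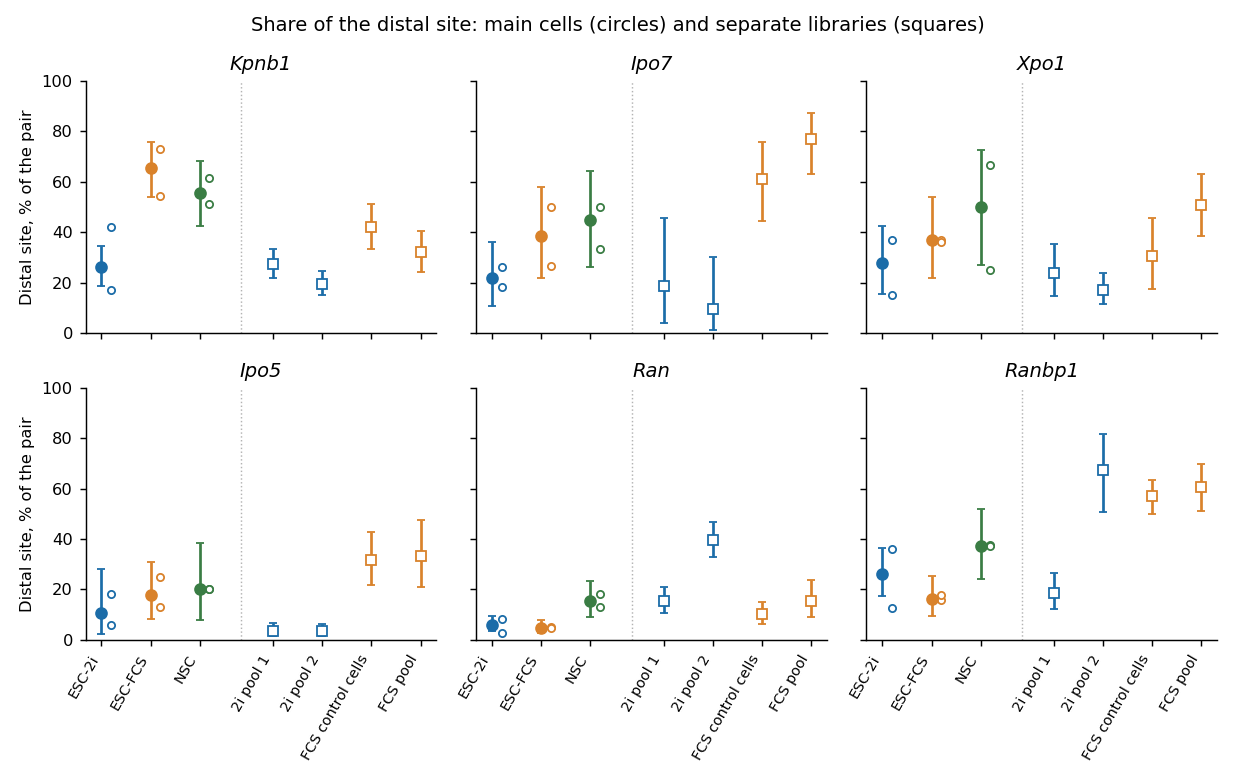
Distal site as percent of the molecules of the pair (y axis) for 6 transport genes, in the main cells (filled circles with exact 95% intervals, open circles for library batches) and in the separate libraries (open squares). Kpnb1 runs from 26.2% in ESC-2i to 65.4% in ESC-FCS but reaches 42.2% in the control cells, and Ranbp1 differs between libraries of the same label by up to 49.0 points.

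Other members also differed between libraries of the same label. The control cells exceeded the ESC-FCS cells of the main set by 40.6 points (29.7 to 49.3) for Ranbp1, with 56.9% against 16.3%, by 22.3 points (-0.920 to 42.3) for Ipo7 and by 14.1 points (-1.46 to 27.5) for Ipo5. With the batches of both sets apart, 3 of 6 members were thus past the limit upward and Kpnb1 downward, where all 1357 genes gave 9.51% upward and 5.23% downward. The ESC-2i pools gave distal shares of 18.5% and 67.5% for Ranbp1 and 15.2% and 39.6% for Ran, and differed by 49.0 points (31.6 to 62.7) and 24.4 points (15.9 to 32.4). Between the libraries of one label both Ranbp1 and Ran therefore moved more than they did between the populations. The distal share of Ran was 10.1% in the control cells, with 12.4% and 6.17% in their batches, and 15.2% in the ESC-FCS pool, beside 15.3% in NSC. That of Ranbp1 was 60.7% in the ESC-FCS pool, above the 37.3% of NSC. Relative to the ESC-2i cells, the control cells were past the limit upward for 3 of 6 members, by 21.0 points (2.19 to 33.8) for Ipo5, 39.2 points (18.6 to 55.6) for Ipo7 and 30.8 points (19.0 to 40.9) for Ranbp1, beside 13.2% of 1569 genes, and for 0 downward, beside 5.35%. For Kpnb1, Ipo7, Ipo5 and Xpo1 the pooled ESC-FCS cells, the control cells and the ESC-FCS pool each lay above the pooled ESC-2i cells and both ESC-2i pools. Single library batches did not all keep this order. Those of Ipo5 overlapped, with 18.2% and 5.88% in ESC-2i and 25.0% and 12.9% in ESC-FCS. The ESC-2i batch of Xpo1 at 37.0% lay above the control cells, which exceeded the pooled ESC-2i cells by only 2.78 points (-15.3 to 20.7). The ESC-2i batch of Kpnb1 at 42.2% lay above the ESC-FCS pool at 32.1%. For Xpo1 the ESC-2i pools gave 24.0% and 17.0%, the control cells 30.4% and the ESC-FCS pool 50.7%. For the importins Ipo7 and Ipo5 the ESC-2i pools gave 18.8% and 9.52% for Ipo7 and 3.39% and 3.51% for Ipo5, the control cells 61.0% and 31.7%, and the ESC-FCS pool 76.9% and 33.3%. The Ipo7 shares of the ESC-2i pools rest on 16 molecules (4.05 to 45.6) and 21 molecules (1.17 to 30.4), the first below the minimum of 20.

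Ran was the most abundant member in each population and its level separated ESC-FCS from the rest. It stood at 7.25 molecules per 10000 in ESC-2i (6.40 to 8.17) and 12.9 in ESC-FCS (11.5 to 14.5), against 7.51 in NSC (6.19 to 9.02). The batches were 6.36 and 8.04 in ESC-2i, 12.2 and 13.9 in ESC-FCS, and 8.02 and 6.94 in NSC, so that ESC-FCS did not overlap with either. Single cells held from 2 to 17 molecules in ESC-2i with a median of 7, from 0 to 24 in ESC-FCS with a median of 8, and from 0 to 12 in NSC with a median of 2. As shares of cells with a molecule, 100% of ESC-2i, 93.9% of ESC-FCS and 87.8% of NSC held Ran, and 51.2%, 66.8% and 52.3% were expected to at an equal depth of 1000 molecules per cell. The ratio of ESC-FCS was 1.78 (1.51 to 2.11) to ESC-2i, and NSC stood at 0.581 (0.464 to 0.723) of ESC-FCS. In reads in place of molecules, NSC differed from ESC-FCS by -0.36 on the log2 scale, which is less than 1.5-fold.

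The partners of Ran followed in part. Ranbp1 stood at 2.52 molecules per 10000 in ESC-2i and 4.46 in ESC-FCS, against 3.56 in NSC, with batches from 2.24 to 2.78, from 3.63 to 5.07 and from 3.13 to 4.02. The ratio of ESC-FCS to ESC-2i was 1.76 (1.32 to 2.36). Between batches 2 of both, paired by number only, it was 0.38 on the log2 scale, less than 1.5-fold. Nutf2 stood at 0.489, 0.838 and 0.856, over 18, 19 and 13 molecules, and the interval of its ratio of ESC-FCS to ESC-2i, 1.72, ran from 0.852 to 3.47. Its ratio of NSC to ESC-2i was 1.75 (0.789 to 3.78), and the copy of its end in Nutf2-ps1 leaves its levels uncertain too. Rcc1 was the rarest member with a value in every population, at 0.434, 0.573 and 0.395 over 16, 13 and 6 molecules, and its batches overlapped in every comparison.

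Among the importins, Kpnb1 was the most abundant, and its level did not differ past the limit between any populations. Its level was 4.10 molecules per 10000 in ESC-2i (3.47 to 4.81) and 4.46 in ESC-FCS (3.63 to 5.41), against 4.74 in NSC (3.71 to 5.97). The ESC-2i batches, at 2.92 and 5.16, enclosed both of ESC-FCS, and the ratio of ESC-FCS to ESC-2i was 1.09 (0.836 to 1.41). In reads in place of molecules, that ratio was 0.76 on the log2 scale, and between batches 1 of both, paired by number only, it was 0.61. For NSC over ESC-2i the batches, again paired by number only, gave 0.85 and -0.31 on the log2 scale, of opposite sign. Ipo5 stood at 1.36, 2.74 and 2.63, a ratio of 2.02 (1.37 to 2.99) for ESC-FCS and 1.94 (1.25 to 3.00) for NSC over ESC-2i, and its ESC-2i batches, at 1.32 and 1.39, lay below all others. Ipo7 stood at 1.33, 1.59 and 1.98 with overlapping batches. Kpna4 stood at 0.570, 1.10 and 0.856, over 21, 25 and 13 molecules, and its ESC-FCS batches were above those of ESC-2i by a ratio of 1.93 (1.04 to 3.63). Xpo1 stood at 2.09, 2.96 and 2.24, but the ESC-FCS batches were 3.84 and 1.76 and enclosed those of ESC-2i.

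Kpna2 could hardly be measured. It gave 0 molecules in ESC-2i and NSC and 3 in ESC-FCS, all in 2 cells of 1 batch, 0 in the control cells and in both ESC-2i pools, and 3 in the ESC-FCS pool. A count of 0 allows up to 0.100 molecules per 10000 in ESC-2i and 0.243 in NSC by the exact interval. Of 10 tiles of 30 bases that make up the last 300 bases of its transcript, 9 recur in the transcript of Gm10184, which itself has 0 molecules in the 144 cells, and the authors removed reads that aligned to several places. The part of that step in the low count was not tested, and no level of Kpna2 is drawn from it.

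**Figure D4:**
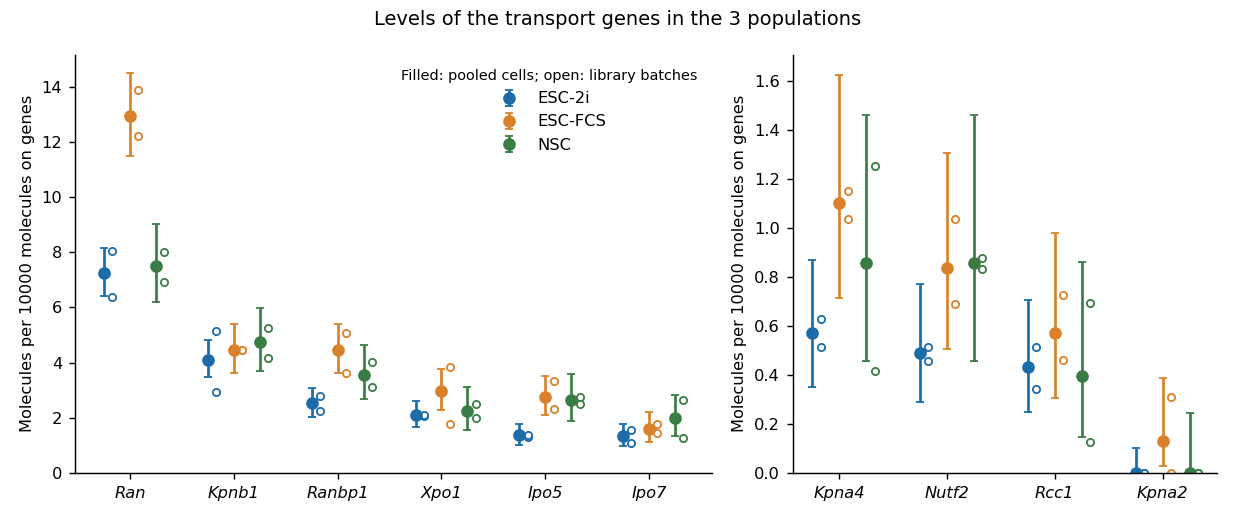
Molecules per 10000 molecules on genes (y axis) of the 10 transport genes in ESC-2i, ESC-FCS and NSC, as pooled cells with exact 95% intervals (filled) and library batches (open). Ran stands apart in ESC-FCS at 12.9, Kpnb1 lies between 4.10 and 4.74 in all populations, and Kpna2 is at or near 0.

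Order among neighbours was mostly within the counting intervals. In ESC-2i, Ran stood above Kpnb1 and Kpnb1 above Ranbp1 with intervals apart, and Ipo7 stood above Kpna4. In ESC-FCS and in NSC, Ran alone had an interval apart from that of the next gene. Summed over the 10 genes, ESC-2i held 20.1 molecules per 10000 (18.7 to 21.6), ESC-FCS 31.8 (29.5 to 34.2) and NSC 24.8 (22.3 to 27.4), with batches of 17.4 and 22.6, of 31.6 and 31.9, and of 26.1 and 23.3.

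A level was counted as past the limit where it differed by at least 1.5-fold and the batches of the populations did not overlap. From ESC-2i to ESC-FCS, 5 of 9 members with at least 20 molecules were past it upward, namely Kpna4, Ipo5, Ran, Ranbp1 and Nutf2, beside 15.2% of 5007 genes, and 0 downward, beside 21.5%. All 9 ratios were above 1, with a median of 1.72 against 0.956 over all genes. From ESC-2i to NSC, Ipo5 and Nutf2 were past it upward (all genes 24.7% of 4803) and 0 of 9 downward (29.3%), with a median ratio of 1.41 against 0.963. In both comparisons the interval of the Nutf2 ratio includes 1. From ESC-FCS to NSC, 0 of 8 were past it upward (all genes 26.3% of 3600) and Ran downward (23.6%), with a median ratio of 0.880 against 1.03. With size factors from the median ratio over genes every ratio of NSC to ESC-2i fell by 0.19 on the log2 scale and every ratio of NSC to ESC-FCS by 0.18, which put the NSC levels of Kpnb1 and Nutf2 below those of ESC-FCS and the NSC levels of Ran and Xpo1 below those of ESC-2i. The counts of members past the limit did not change. The genes past the limit then split into 772 higher and 1052 lower from ESC-FCS to NSC, against 948 and 851 with molecules per 10000.

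As a sum, markers of dividing cells were higher in ESC-FCS than in ESC-2i, as the transport genes were. Their sum was lower in NSC, where the transport genes were not lower than in ESC-2i as a sum. Top2a alone went the other way, at 1.19 molecules per 10000 in NSC against 0.869 in ESC-2i. The 10 mitotic genes, all with molecules in each population, summed to 8.61 molecules per 10000 in ESC-2i (batches 7.68 and 9.44) and 14.9 in ESC-FCS (15.5 and 14.0), against 3.36 in NSC (3.26 and 3.47), although all cells had been sorted for G0/G1. Their part in the levels of the transport genes was not tested.

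The control cells gave the same direction relative to ESC-2i with other sizes. In them, 7 of 9 members were past the limit upward relative to the ESC-2i cells, beside 26.1% of 5150 genes, and 0 downward, beside 25.6%, with a median ratio of 1.75. Ranbp1 stood at 10.0 molecules per 10000, 3.96 times its ESC-2i level (3.10 to 5.10), Ipo5 at 4.62, a ratio of 3.40 (2.40 to 4.87), and Kpnb1 at 6.55, a ratio of 1.60 (1.26 to 2.02). Ran stood at 9.77, a ratio of 1.35 (1.12 to 1.62) that missed the limit. Relative to the ESC-FCS cells of the main set, 2 of 9 members were past it upward, Ipo5 by 1.69 (1.22 to 2.35) and Ranbp1 by 2.24 (1.77 to 2.87), and 0 downward. Of all 4064 genes 24.6% were past it upward and 15.4% downward between these sets of one label, beside the 15.2% and 21.5% between ESC-FCS and ESC-2i. These cells share the ESC-2i cells as reference with the ESC-FCS cells of the main set.

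**Figure D5:**
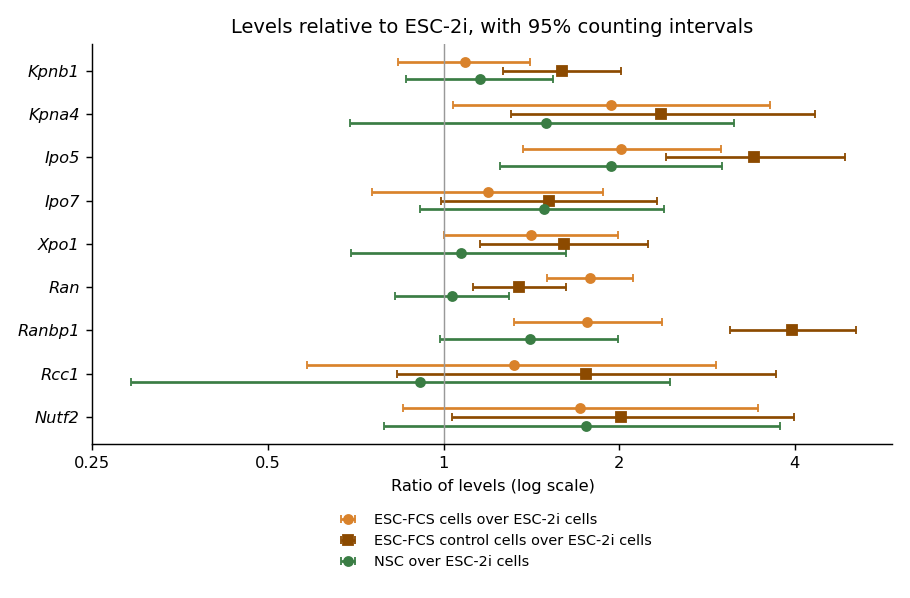
Ratios of levels to the ESC-2i cells (x axis, log scale, exact 95% counting intervals) for 9 transport genes in ESC-FCS, the separate ESC-FCS control cells and NSC. All ESC-FCS ratios in both sets lie above 1, from 1.09 for Kpnb1 in the main set to 3.96 for Ranbp1 in the control cells.

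The pools went partly the other way. Ranbp1 kept the direction of the single cells, at 6.53 molecules per 10000 in the ESC-FCS pool against 2.65 and 0.808 in the ESC-2i pools. So did Ipo7, at 3.13 against 0.417 and 0.505, and Ran. Ran stood at 5.92 molecules per 10000 in the ESC-FCS pool and at 4.19 and 4.37 in the ESC-2i pools, below the single cells of either label. Ipo5 stood at 6.59 and 7.64 in the ESC-2i pools, above the ESC-FCS pool at 4.13 and unlike the ESC-2i cells at 1.36. Rcc1 stood at 2.00 and 4.24 in the ESC-2i pools, above the pooled single cells of each population and above the ESC-FCS pool at 0.223. Kpna4 stood at 0.670 in the ESC-FCS pool, below 1.15 and 2.34 in the ESC-2i pools, the reverse of the single cells. Kpnb1 stood at 8.88 in the ESC-FCS pool and 7.93 and 8.81 in the ESC-2i pools.

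Other transport genes, from a list of 28 karyopherins and Ran factors and 30 nucleoporins, were set beside the members. Of the karyopherins and Ran factors with at least 20 molecules, 6 of 22 were past the 1.5-fold limit upward and 1 downward from ESC-2i to ESC-FCS, with a median ratio of 1.04, beside 15.2% and 21.5% of all genes. From ESC-2i to NSC 6 of 20 were past it upward and 2 downward, with a median ratio of 1.03, beside 24.7% and 29.3% of all genes, and from ESC-FCS to NSC 3 of 19 each way, with a median ratio of 1.03, beside 26.3% and 23.6% of all genes. Of the nucleoporins, 6 of 22 were past it upward and 2 downward from ESC-2i to ESC-FCS (median ratio 1.33), 4 of 19 upward and 5 downward from ESC-2i to NSC (0.882), and 2 of 19 upward and 10 downward from ESC-FCS to NSC (0.597), against the same shares of all genes.

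The largest of these differences lay in NSC. Nup210, a membrane protein of the pore, had 21 molecules in NSC, 7 in ESC-2i and 2 in ESC-FCS, a ratio of 7.28 (2.98 to 20.3) over ESC-2i and of 15.7 (3.83 to 138) over ESC-FCS. Ipo4, an importin of histones, stood at 4.15 molecules per 10000 in NSC against 0.814 in ESC-2i and 0.794 in ESC-FCS, ratios of 5.09 (3.25 to 8.15) and 5.22 (3.05 to 9.37). Xpot, which exports tRNA, was 4.61 times its ESC-2i level in NSC (2.61 to 8.36). Aaas, the nucleoporin aladin, had 88 molecules in ESC-2i and 29 in ESC-FCS, against 2 in NSC, ratios of 0.536 (0.339 to 0.823) for ESC-FCS over ESC-2i, 0.0551 (0.00657 to 0.205) for NSC over ESC-2i and 0.103 (0.0119 to 0.407) for NSC over ESC-FCS. Nup37 of the outer ring complex had 7 molecules in ESC-2i and 20 in ESC-FCS, against 0 in NSC, a ratio of 4.64 (1.89 to 13.0) for ESC-FCS over ESC-2i and at least 4.47-fold lower in NSC than in ESC-FCS by a floor of 3 molecules over the population.

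Smaller differences past the limit included that of Ahctf1, which starts pore assembly on chromatin, at 2.63 (1.25 to 5.71) from ESC-2i to ESC-FCS. Upward they were also those of the alpha importin Kpna3 at 2.44 (1.18 to 5.18) and of Nup153 at 2.44 (0.916 to 6.87) in that comparison, and of Sec13 at 2.45 (1.21 to 5.15) from ESC-FCS to NSC. Downward they were those of Rae1, an mRNA export factor, at 0.516 (0.295 to 0.865) and Xpo4 at 0.662 (0.296 to 1.38) from ESC-2i to ESC-FCS, of Rangap1, the Ran GTPase activating protein, at 0.479 (0.262 to 0.826) and Nup188 at 0.502 (0.170 to 1.23) from ESC-2i to NSC, and of Nup160 at 0.351 (0.0860 to 1.08) from ESC-FCS to NSC. In the distal share, Rangap1 and Nup50 were past 10 points upward from ESC-2i to ESC-FCS, by 13.5 (-0.262 to 23.9) and 11.1 (-8.83 to 28.6) points, of 15 genes of the list with enough molecules, beside 7.07% of all genes. Ipo4 and Sec13 were so from ESC-2i to NSC, by 17.9 (-4.00 to 37.4) and 12.0 (-4.80 to 30.0) points, of 4 genes (all genes 11.6%), and Xpot from ESC-FCS to NSC, by 31.9 points (6.18 to 52.0), of 3 genes (all genes 8.42%). None was past it downward.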

How the data were processed

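BATSeq libraries of 144 single cells (48 each of ESC-2i, ESC-FCS and NSC), 48 further ESC-FCS cells and 3 pools were analysed. The authors trimmed terminal A, aligned reads to GRCm38 with GSNAP, kept unique alignments, removed sites before A-rich genomic sequence, merged UMIs and joined positions within 12 nt. The deposited counts are UMI counts (molecules) per polyadenylation site, and read counts beside them. The submitters' processing notes also name HTSeq and R 3.0.2. Deposited positions count from 0 and are given from 1.

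Cells in the gene table (107) were pooled by population and levels given per 10000 molecules on genes. Each population counts as 1 sample, so no p-value was computed. Poisson and Clopper-Pearson intervals are exact, ratios use the exact binomial and share differences Newcombe's method, in Python 3.11.15 with scipy 1.17.1. Separate libraries used sites within 12 nt of the pair and, for single cells, at least 1000 molecules. The scripts were tested on simulated data. The genes, the transport and marker lists and the limits were chosen with earlier results of these data known. Named beside the 10 genes were transport genes past a limit, up to 3 per direction and comparison, and the 3 genes nearest to Kpnb1. The alternatives tried were read counts, size factors, other limits, single library batches and the control cells.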

Additional observations from a re-analysis of the deposited data

How the results depend on the processing

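No paired analysis was possible because replicate numbers only name cells in accession order and no test was made. Of 243 recomputed level ratios of the members 231 moved by less than their interval, and of 163 share differences 158. None of those called changed sign. For single library batches the call itself fixed the sign, because it required that the batches of the populations did not overlap. Most other alternatives reused largely the same molecules, so the kept signs are no independent check. Between library batches 1 the Kpnb1 distal share of NSC exceeded that of ESC-2i by 9.21 points and between batches 2 by 44.3 points. These batches are paired by number only, so both values depend on the order of numbering. NSC over ESC-FCS, not called, was 6.99 points between batches 2. The cause was not tested. The counts depend on the limits.

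At 2-fold, 1 of 9 members was past the limit upward from ESC-2i to ESC-FCS, beside 7.31% of 5007 genes. From ESC-2i to NSC 0 of 9 were so (all genes 17.7% of 4803), and 0 of 8 downward from ESC-FCS to NSC (17.3% of 3600). With at least 50 molecules, 3 of 6 members were past it upward from ESC-2i to ESC-FCS, beside 13.8% of 2159 genes. From ESC-2i to NSC 1 of 6 was so, beside 21.7% of 1920 genes. For shares, 20 points left 1 of 6 members upward from ESC-2i to ESC-FCS and 1 of 6 from ESC-FCS to NSC. At least 50 molecules of the pair left 1 from ESC-2i to ESC-FCS. The counts over all genes under these limits follow.

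Over all genes, levels past the limit from ESC-2i to ESC-FCS numbered 366 higher and 681 lower of 5007 at 2-fold. They numbered 297 and 424 of 2159 with at least 50 molecules, and 1845 and 1853 of 11751 with at least 1 molecule in each population. From ESC-2i to NSC they numbered 417 higher and 603 lower of 1920 with at least 50 molecules, and 2571 higher and 1710 lower of 10322 with at least 1, against 1185 and 1406 of 4803. From ESC-FCS to NSC they numbered 301 and 313 of 1305 with at least 50, and 2353 and 1476 of 9991 with at least 1. Shares past the limit, higher and lower, numbered 35 and 21 of 1585 genes at 20 points, 29 and 11 with at least 50 molecules and 252 and 138 with at least 10 from ESC-2i to ESC-FCS. From ESC-2i to NSC they numbered 55 and 8 of 997, 37 and 2, and 304 and 100. From ESC-FCS to NSC they numbered 34 and 5 of 891, 18 and 4, and 193 and 84. With the control cells in place of the ESC-FCS cells, an alternative chosen after seeing the data, 1345 of 5150 genes were past the level limit and 207 of 1569 past the share limit upward. Size factors gave 960 higher and 1677 lower from ESC-2i to NSC, and 772 and 1052 from ESC-FCS to NSC. Depth limits Rcc1, Nutf2 and Kpna4, with at most 25 molecules each in any population.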
